A study of Mus musculus with 12 samples.

Results

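Cholesterol synthesis and transport was followed through 32 genes of the 21956 in the count table, chosen by name for the step each is known to carry out. They comprised 7 enzymes from acetyl-CoA to farnesyl diphosphate (Acat2, Hmgcs1, Mvk, Pmvk, Mvd, Idi1 and Fdps), 11 enzymes from squalene to cholesterol (Fdft1, Sqle, Lss, Cyp51, Tm7sf2, Msmo1, Nsdhl, Hsd17b7, Ebp, Sc5d and Dhcr7), 5 regulators of synthesis (Srebf1, Srebf2, Scap, Insig1 and Insig2), 2 LXR receptors (Nr1h2 and Nr1h3), 2 efflux transporters (Abca1 and Abcg1) and 5 genes of transfer, esterification and turnover (Stard4, Soat1, Npc1, Npc2 and Cyp46a1). All 32 passed the filter on low counts in every comparison, and the lowest count of any of them in any library was 40.

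RNA-seq was performed on poly(A) RNA from hematoma-adjacent brain tissue of 12 mice, 3 in each of 4 groups. Intracerebral hemorrhage (ICH) was produced by a collagenase injection into the right striatum, and the ICH groups were harvested 48 h later. Sham mice had the operation without collagenase. Fabp4fl_fl mice carried floxed alleles of Fabp4, a carrier protein for fatty acids. Fabp4CKO mice carried the same floxed alleles together with TMEM119creER, a tamoxifen-inducible Cre recombinase expressed from a microglial gene, and received tamoxifen, so the deletion was aimed at microglia while all RNA of the tissue was sequenced. Whether the Fabp4fl_fl mice received tamoxifen is not given in the sources used here, nor is the age of the floxed mice. The groups are therefore Sham-Fabp4fl_fl, Sham-Fabp4CKO, ICH-Fabp4fl_fl and ICH-Fabp4CKO. The comparisons ask what ICH does to these genes in each genotype and whether the Fabp4 deletion alters that.

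Brain cholesterol is made almost entirely in the brain, because the blood-brain barrier keeps out plasma lipoproteins. When sterols in the endoplasmic reticulum are low, SCAP carries SREBP proteins to the Golgi, where they are cut and released to switch on the synthesis enzymes, and INSIG proteins hold SCAP back when sterols are plentiful. Sterol excess works in the opposite direction through oxysterols, which activate the LXR receptors and with them the efflux transporters Abca1 and Abcg1. Cells that engulf myelin or dead cells receive cholesterol through the lysosome, from which NPC1 and NPC2 release it, and SOAT1 stores the surplus as cholesteryl ester.

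RefSeq promoter windows of 300 bases (250 before to 50 after the transcription start) were available for 26 of the 32 genes, as 35 windows on the build GRCm38.p6. Fdps, Fdft1, Sqle, Abcg1, Stard4 and Npc1 had no entry. Each window was searched on both strands for 5 motifs: the core CACCCCAC of the sterol regulatory element, which binds SREBP proteins, the full element, in which AT precedes that core, the Y box CCAAT, which binds NF-Y, the GC box GGGCGG, which binds SP factors, and the E box CACGTG. The 2 sterol elements overlap by construction. The Y box was found for 14 of 15 synthesis enzymes with an entry (93.3%), beside 41.1% of all 27025 genes in the table, and the GC box likewise for 14 of 15 (93.3%), beside 38.2% of all genes. Among the 11 other genes with an entry, 7 held a Y box (63.6%) and 9 a GC box (81.8%). The full sterol element was in none of the 26 genes and in 27 of all 27025 genes (0.0999%). Its core was found for 2 of 26 genes (7.69%), Acat2 and Hmgcs1, beside 3.3% of all genes. The E box was found for 6 of 26 (23.1%), beside 8.09% of all genes. These matches are letters in a window, not bound sites.

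The windows of 4 genes are shown because they stand for 4 patterns after ICH: an early enzyme that did not pass the test, an enzyme and a regulator that rose and fell in Fabp4fl_fl mice, and a transporter that rose in both genotypes. Capitals mark the sterol element core, Y boxes and E boxes on either strand. Hmgcs1 lies at chr13:119690101-119690400 on the plus strand, Mvk at chr5:114444019-114444318 on the plus strand, Insig1 at chr5:28071162-28071461 on the plus strand and Abca1 at chr4:53159846-53160145 on the minus strand.
Hmgcs1: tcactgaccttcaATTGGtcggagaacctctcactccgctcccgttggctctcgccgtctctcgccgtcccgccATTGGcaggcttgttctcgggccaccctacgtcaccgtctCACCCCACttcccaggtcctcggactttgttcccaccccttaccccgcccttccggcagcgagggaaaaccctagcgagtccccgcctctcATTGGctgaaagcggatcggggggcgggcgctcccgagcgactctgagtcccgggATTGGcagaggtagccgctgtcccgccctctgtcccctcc
Mvk: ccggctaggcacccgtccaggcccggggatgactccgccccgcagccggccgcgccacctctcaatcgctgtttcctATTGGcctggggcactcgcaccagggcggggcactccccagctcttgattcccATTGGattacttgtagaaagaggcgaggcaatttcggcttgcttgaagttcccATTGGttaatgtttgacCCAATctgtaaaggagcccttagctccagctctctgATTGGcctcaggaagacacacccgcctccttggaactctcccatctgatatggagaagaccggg
Insig1: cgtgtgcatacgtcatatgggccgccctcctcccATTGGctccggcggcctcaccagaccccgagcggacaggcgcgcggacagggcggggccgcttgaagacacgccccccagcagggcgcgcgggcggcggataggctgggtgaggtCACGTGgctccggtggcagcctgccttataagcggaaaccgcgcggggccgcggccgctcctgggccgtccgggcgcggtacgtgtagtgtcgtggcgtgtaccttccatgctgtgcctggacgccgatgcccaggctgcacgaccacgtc
Abca1: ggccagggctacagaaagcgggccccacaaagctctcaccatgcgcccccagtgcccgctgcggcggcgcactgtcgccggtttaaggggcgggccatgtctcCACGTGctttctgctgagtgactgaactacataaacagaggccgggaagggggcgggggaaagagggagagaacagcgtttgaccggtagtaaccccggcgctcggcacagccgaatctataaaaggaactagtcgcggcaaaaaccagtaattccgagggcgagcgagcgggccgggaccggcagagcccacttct
The Hmgcs1 window held 1 sterol element core and 4 Y boxes, and that of Mvk held 5 Y boxes and no core. Insig1 had 1 Y box and 1 E box. In Abca1 there was 1 E box and no Y box.

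Total estimated counts ranged from 15650813 to 22406216 per library, of which mitochondrial genes made up 16.3%, 10.4% and 11.9% in the ICH-Fabp4fl_fl mice and 7.90% to 9.95% in the other 9 libraries. The part of this in the results was not tested. Counts of Fabp4, the targeted gene, were 46, 63 and 24 in the ICH-Fabp4fl_fl mice and 5, 3 and 10 in the ICH-Fabp4CKO mice. In sham tissue they were 2, 1 and 2 in Fabp4fl_fl mice and 0, 0 and 0 in Fabp4CKO mice, too few to check the deletion there. Markers of neurons, astrocytes and oligodendrocytes were present in every library, as brain tissue has them. Several libraries stood apart from others of their group. ICH-Fabp4CKO mouse 1 had 1 count over the Y-linked genes, against 1302 to 2251 in the other 11 libraries. Sham-Fabp4fl_fl mice 1 and 2 had 272 and 397 CPM (counts scaled to the library size) of Slc17a7, the transporter of cortical glutamatergic neurons, against 59.5 in mouse 3, and for Ppp1r1b, a marker of striatal neurons, the same 3 mice had 469, 538 and 1440.0 CPM. ICH-Fabp4CKO mouse 2 had far less of the macrophage marker Lyz2 (908 CPM) than mice 1 and 3 (4415 and 8033 CPM).

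Levels below are CPM, with library sizes scaled by the trimmed mean of M-values (TMM), and are given for mice 1, 2 and 3 in that order. Differences are log2 fold changes ± SE from edgeR's quasi-likelihood test with 3 mice per group, with Benjamini-Hochberg adjusted p-values over all genes tested and a threshold of 0.05. A CPM value depends on gene length, so levels are compared between mice and not between genes. Each library is taken as 1 mouse, which the labels do not state, so the p-values measure the spread between these libraries. The labels of the ICH-Fabp4fl_fl libraries alone carry an added suffix, whose meaning is not given in the sources used here. In whole tissue, more cells of a type and more RNA per cell cannot be told apart.

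After ICH, Abca1, Soat1, Npc1 and Npc2, genes that export, store and release cholesterol, and the LXR receptor gene Nr1h3 rose in both genotypes. The call for Npc1 in Fabp4fl_fl mice was lost in most fits with other settings or with 1 library left out. Few synthesis enzymes passed the test, and 3 of 5 regulators of synthesis fell in Fabp4fl_fl mice. In Fabp4fl_fl mice, 7 of the 32 genes rose (Abca1, Nr1h3, Npc2, Soat1, Ebp, Mvk and Npc1) and 4 fell (Sqle, Srebf2, Insig1 and Insig2). In Fabp4CKO mice, 7 rose (Abca1, Npc2, Soat1, Nr1h3, Abcg1, Npc1 and Srebf1) and 1 fell (Tm7sf2). These shares were close to or under those of all genes. In Fabp4fl_fl mice 21.9% of the 32 rose against 26.2% of the 14719 genes tested, and 12.5% fell against 19.3%. In Fabp4CKO mice 21.9% rose against 24.5% of 14737 genes, and 3.12% fell against 11.1%. The median log2 fold change of the 32 was -0.20 in Fabp4fl_fl mice and -0.10 in Fabp4CKO mice, beside 0.02 and 0.01 over all genes tested. Of the 9 receptor, efflux, transfer, esterification and turnover genes, 5 rose in Fabp4fl_fl mice and 6 in Fabp4CKO mice, and none fell. Of the 18 synthesis enzymes, 2 rose and 1 fell in Fabp4fl_fl mice, and none rose and 1 fell in Fabp4CKO mice.

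**Figure D1:**
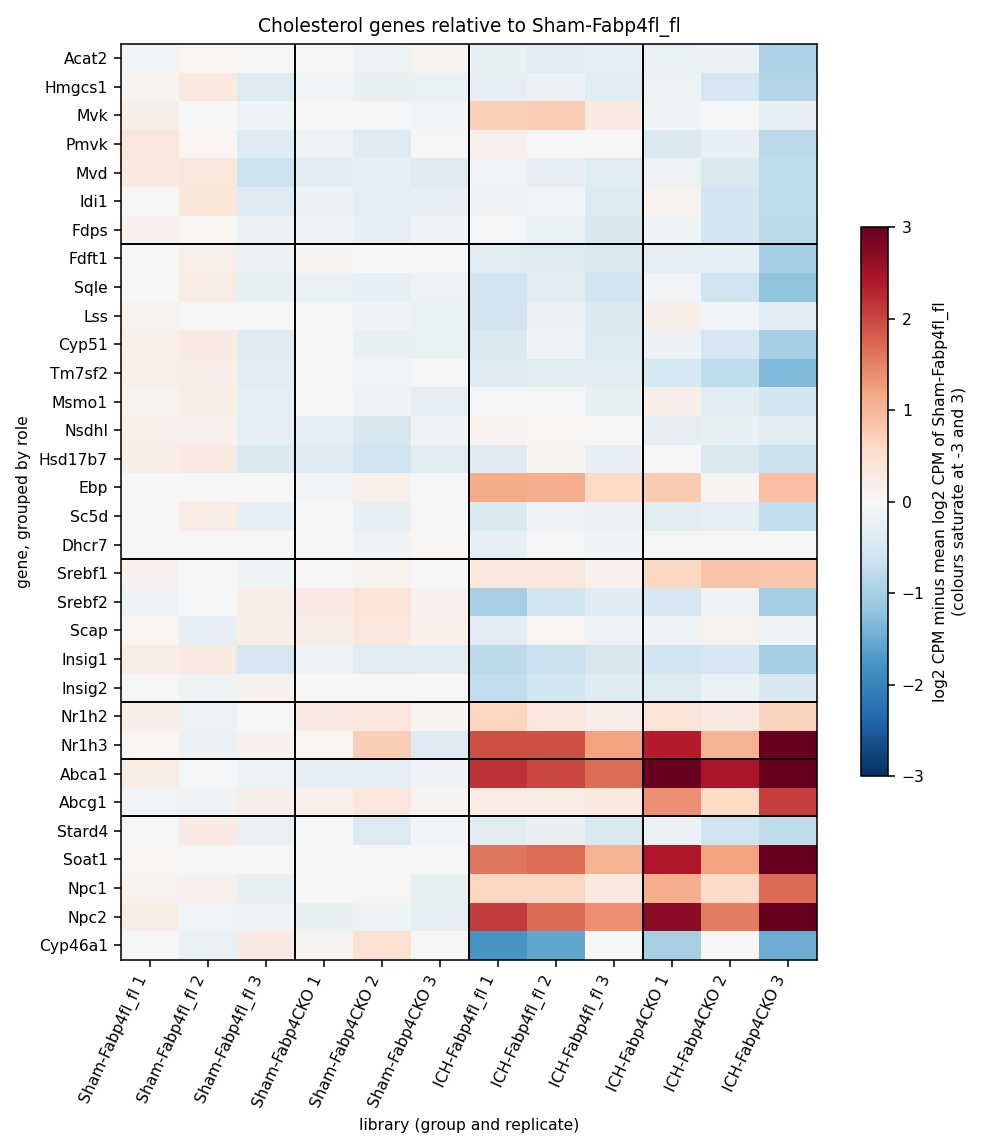
Heat map of the 32 genes (rows, with black lines between the 6 role groups) in the 12 libraries (columns). Colour gives log2 CPM minus the mean log2 CPM of the 3 Sham-Fabp4fl_fl mice, red higher and blue lower, saturating at -3 and 3. Nr1h3, Abca1, Soat1 and Npc2 are red in all 6 ICH libraries, each above 1, and Abcg1 and Npc1 exceed 1 in ICH-Fabp4CKO mice 1 and 3 alone. Of the enzymes in the top rows, Ebp exceeds 1 in ICH-Fabp4fl_fl mice 1 and 2, and Tm7sf2, Sqle, Fdft1 and Cyp51 are below -1 in ICH-Fabp4CKO mouse 3.

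Abca1, which moves cholesterol out of the cell onto lipid-poor apolipoproteins, rose more than any other of the 32 in both genotypes. Its levels were 65.4, 54.1 and 50.5 CPM in Sham-Fabp4fl_fl mice and 46.8, 46.5 and 51.8 in Sham-Fabp4CKO mice. They were 254, 228 and 179 in ICH-Fabp4fl_fl mice and 886, 309.5 and 1768 in ICH-Fabp4CKO mice. Every ICH mouse lay above every sham mouse, and ICH-Fabp4CKO mouse 2 was far below mice 1 and 3 of its group. The increase was 3.93-fold in Fabp4fl_fl mice (log2 1.98 ± 0.20, adjusted p = 0.000522) and 20.6-fold in Fabp4CKO mice (log2 4.36 ± 0.65, adjusted p = 0.00797).

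Abcg1, the transporter that passes cholesterol to lipoprotein particles, moved less. It had 87.5, 86.1 and 104 CPM in Sham-Fabp4fl_fl mice and 107, 108 and 114 in ICH-Fabp4fl_fl mice, groups that did not overlap but differed by only 0.26 ± 0.14 on the log2 scale (adjusted p = 0.151). In Sham-Fabp4CKO mice it had 102, 117 and 98.3 CPM and in ICH-Fabp4CKO mice 239, 139 and 387. That rise was 2.44-fold (log2 1.28 ± 0.36, adjusted p = 0.0382), with mouse 2 again the lowest of the 3.

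**Figure D2:**
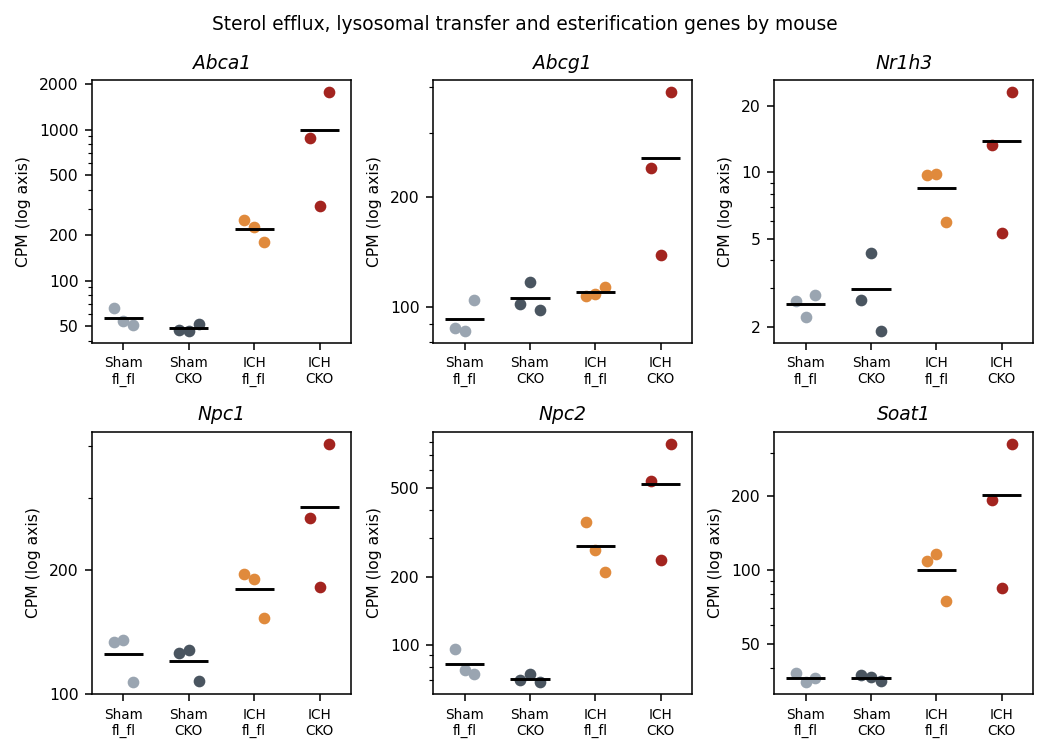
CPM on log axes for Abca1, Abcg1, Nr1h3, Npc1, Npc2 and Soat1. Each point is a mouse, drawn from left to right as mice 1, 2 and 3 of its group, and each bar is the mean of 3 mice. ICH mice lie above sham mice of their genotype in every panel, the ICH-Fabp4CKO mice are spread widest, and mouse 2 of that group is its lowest point in all 6 panels.

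Nr1h3 encodes LXR alpha, the LXR receptor of macrophages and liver. In Fabp4fl_fl mice it went from 2.63, 2.21 and 2.79 CPM in sham to 9.79, 9.86 and 5.95 after ICH, a rise of 1.76 ± 0.28 (adjusted p = 0.00273). Fabp4CKO mice had 2.65, 4.31 and 1.92 CPM in sham and 13.4, 5.33 and 23.1 after ICH, a rise of 2.24 ± 0.58 (adjusted p = 0.0317). Neither pair of groups overlapped. Leaving out 1 library at a time, Nr1h3 passed in 6 of 6 fits in Fabp4fl_fl mice and in 1 of 6 in Fabp4CKO mice. The gene overlaps Acp2 in the RefSeq annotation and the library kit does not mark strand by its name, so reads of the 2 genes cannot be told apart where they overlap. Nr1h2, the broadly expressed LXR beta, differed by 0.42 ± 0.17 in Fabp4fl_fl mice (adjusted p = 0.0801) and by 0.25 ± 0.15 in Fabp4CKO mice (adjusted p = 0.216), and passed in neither.

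Soat1, the enzyme that esterifies cholesterol for storage in lipid droplets, rose in both genotypes. It stood at 38.3, 35.1 and 36.5 CPM in Sham-Fabp4fl_fl mice and 109, 116 and 75 in ICH-Fabp4fl_fl mice (log2 1.47 ± 0.19, adjusted p = 0.00123). In Sham-Fabp4CKO mice it stood at 37.5, 36.7 and 35.4 CPM and in ICH-Fabp4CKO mice at 193, 85 and 326 (log2 2.48 ± 0.47, adjusted p = 0.0135). All 6 sham mice were within a narrow range and all 6 ICH mice were above it.

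The lysosomal pair that releases cholesterol from engulfed material also rose. Npc2, the soluble sterol carrier of the lysosome, increased from 95.8, 77.2 and 74.4 CPM to 354, 264 and 211 in Fabp4fl_fl mice (3.4-fold, adjusted p = 0.0014). In Fabp4CKO mice it increased from 70.1, 74.3 and 68.4 CPM to 534, 238 and 786 (7.39-fold, adjusted p = 0.00801). Npc1, the membrane protein that takes the sterol over from NPC2, was at 134, 135 and 107 CPM in Sham-Fabp4fl_fl mice and 196, 190.2 and 153 in ICH-Fabp4fl_fl mice (1.45-fold, adjusted p = 0.0401). It was at 126, 128 and 108 CPM in Sham-Fabp4CKO mice and 267, 182 and 406 in ICH-Fabp4CKO mice (2.39-fold, adjusted p = 0.0244). ICH and sham mice of one genotype did not overlap for either gene. When 1 library was left out at a time, Npc1 passed in 1 of 6 fits in Fabp4fl_fl mice and in 2 of 6 in Fabp4CKO mice. Of the 6 alternatives that kept all libraries, it passed in 2 in Fabp4fl_fl mice and in 5 in Fabp4CKO mice. Npc1 overlaps Rmc1 in the annotation.

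Stard4 and Cyp46a1 did not pass in either genotype. Stard4, a cytosolic sterol carrier under SREBP control, differed by -0.34 ± 0.16 in Fabp4fl_fl mice and by -0.31 ± 0.19 in Fabp4CKO mice (adjusted p = 0.119 and 0.222). Cyp46a1, the neuronal hydroxylase through which the brain disposes of cholesterol, had 136, 123 and 168 CPM in Sham-Fabp4fl_fl mice and 41.5, 47.6 and 139 in ICH-Fabp4fl_fl mice. In Sham-Fabp4CKO mice it had 151, 194 and 139 CPM and in ICH-Fabp4CKO mice 70.6, 144 and 50.3. In each genotype 2 ICH mice were far below the sham mice and 1 was among them, and the differences were -0.88 ± 0.45 (adjusted p = 0.141) and -0.85 ± 0.40 (adjusted p = 0.127). The neuronal marker Rbfox3 had 32.8, 53.6 and 101 CPM in the ICH-Fabp4fl_fl mice and 59.6, 143 and 49 in the ICH-Fabp4CKO mice, so the mice with the most Cyp46a1 also had the most Rbfox3. The part of neuron content in the Cyp46a1 values was not tested.

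Markers of myeloid cells rose beside the transport genes. The 4 markers of monocytes and macrophages (Ly6c2, Ccr2, Lyz2 and Ms4a7) summed to 8.34 to 48 CPM in the 6 sham mice. Their sum was 1241, 1300.2 and 671 CPM in ICH-Fabp4fl_fl mice and 4562, 941 and 8202 in ICH-Fabp4CKO mice. All 4 rose in both genotypes, beside 26.2% of all genes in Fabp4fl_fl mice and 24.5% in Fabp4CKO mice. Ly6c2 was at 0 in Sham-Fabp4CKO mouse 2 and Ccr2 in Sham-Fabp4CKO mouse 3. The 4 microglial markers (Tmem119, P2ry12, Cx3cr1 and Sall1) summed to 153 to 187 CPM in sham mice, 406, 442 and 519 in ICH-Fabp4fl_fl mice and 690.0, 467 and 827 in ICH-Fabp4CKO mice, and all 4 of these also rose in both genotypes. Abca1, Soat1, Npc1, Npc2 and Nr1h3 were lowest in ICH-Fabp4CKO mouse 2 and highest in mouse 3 of that group, which is also the order of both marker sums there. Lyz2 made up most of the first sum, and Ly6c2 and Ccr2 were highest in mouse 1 of that group (19.3, 8 and 7.05 CPM and 47.8, 12.5 and 29.6 CPM). In ICH-Fabp4fl_fl mice the marker sums differed in order. The monocyte and macrophage sum was highest in mouse 2 and lowest in mouse 3, as were Soat1 and Nr1h3. Abca1, Npc1 and Npc2 were highest in mouse 1 and also lowest in mouse 3. The microglial sum was highest in mouse 3 and lowest in mouse 1. The part of these cells in the transport genes' rise was not tested.

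**Figure D3:**
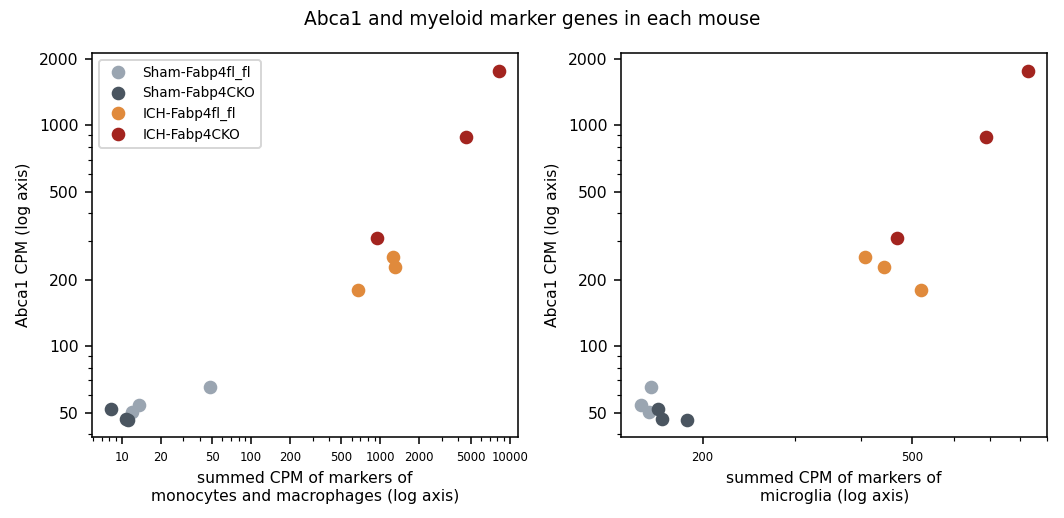
Abca1 CPM (vertical, log axis) against the summed CPM of 4 markers of monocytes and macrophages (left) and 4 markers of microglia (right, both log axes), 1 point per mouse. Sham mice lie at the lower left, the ICH-Fabp4fl_fl mice and ICH-Fabp4CKO mouse 2 lie together, and ICH-Fabp4CKO mice 1 and 3 lie at the upper right in both panels.

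Of the 18 synthesis enzymes, 14 passed the test in neither genotype. Those that rose and fell made up 11.1% and 5.56% in Fabp4fl_fl mice, beside 26.2% and 19.3% of all genes. The shares were 0% and 5.56% in Fabp4CKO mice, beside 24.5% and 11.1% of all genes. The CPM of all 18 enzymes summed to 1083, 1177 and 843 in Sham-Fabp4fl_fl mice and 887, 944 and 833 in ICH-Fabp4fl_fl mice. In Sham-Fabp4CKO mice the sum was 972, 893 and 921 and in ICH-Fabp4CKO mice 954, 786 and 615. The ranges of sham and ICH overlapped in both genotypes. The lowest sum was in ICH-Fabp4CKO mouse 3, which had the highest sums of the monocyte and macrophage and of the microglial markers, but not of the neutrophil markers. Fold changes were below 0 on the log2 scale for 14 of 18 enzymes in Fabp4fl_fl mice and 13 of 18 in Fabp4CKO mice. Their medians were -0.23 and -0.19, beside 0.02 and 0.01 over all genes tested.

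Ebp and Mvk were the 2 enzymes that rose, both in Fabp4fl_fl mice. Ebp, the isomerase that shifts a double bond of the sterol ring, went from 16.7, 16.3 and 16.7 CPM in sham to 35.9, 35.2 and 25.3 after ICH, so each ICH mouse exceeded each sham mouse (log2 0.97 ± 0.17, adjusted p = 0.00422). In Fabp4CKO mice it had 15.7, 18.3 and 16.3 CPM in sham and 28.6, 17.6 and 31 after ICH. There mouse 2 lay within the sham range, and the difference of 0.63 ± 0.23 did not pass (adjusted p = 0.0702). Mvk, the kinase that phosphorylates mevalonate, had 17.9, 15.9 and 14.2 CPM in Sham-Fabp4fl_fl mice and 26.3, 27.2 and 19 in ICH-Fabp4fl_fl mice (log2 0.61 ± 0.19, adjusted p = 0.0343). Sham-Fabp4CKO mice had 16.2, 15.5 and 15 CPM and ICH-Fabp4CKO mice 14.6, 15.4 and 13.4, which overlap (log2 -0.09 ± 0.13, adjusted p = 0.597).

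A single enzyme fell in each genotype. Sqle, which oxidises squalene and is a rate-limiting step, fell in Fabp4fl_fl mice from 66, 77.3 and 57.3 CPM to 45.3, 52.8 and 44.5 (log2 -0.48 ± 0.16, adjusted p = 0.041). Its levels of 57.9, 55.9 and 59.7 CPM in Sham-Fabp4CKO mice and 62.2, 44.2 and 28.5 in ICH-Fabp4CKO mice overlapped (log2 -0.35 ± 0.28, adjusted p = 0.328). Tm7sf2, a reductase of the sterol ring, fell in Fabp4CKO mice from 7.71, 7.35 and 7.92 CPM to 5.34, 4.53 and 3.05 (log2 -0.81 ± 0.24, adjusted p = 0.0444). In Fabp4fl_fl mice it had 8.66, 9 and 6.1 CPM in sham and 5.98, 6.05 and 6.11 after ICH, where the lowest sham mouse lay within the range of the ICH mice (log2 -0.37 ± 0.22, adjusted p = 0.196). Tm7sf2 overlaps Vps51 in the annotation.

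The other 14 enzymes passed in neither genotype, with log2 fold changes from -0.39 (Fdft1) to 0.05 (Nsdhl) in Fabp4fl_fl mice and from -0.47 (Fdft1) to 0.10 (Hsd17b7) in Fabp4CKO mice. Hmgcs1, which makes the HMG-CoA that feeds the pathway, differed by -0.29 ± 0.20 in Fabp4fl_fl mice, with a 95% interval of -0.76 to 0.19, and by -0.30 ± 0.21 in Fabp4CKO mice, with an interval of -0.80 to 0.20. For Dhcr7, a terminal reductase, the intervals were the narrowest of these examples, -0.42 to 0.15 and -0.25 to 0.27. Fdft1, squalene synthase, was below every sham mouse in all ICH mice of both genotypes, with adjusted p = 0.0572 and 0.127. It overlaps Ctsb, and its estimated counts are not whole in any library, nor are those of Acat2, so both are uncertain.

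**Figure D4:**
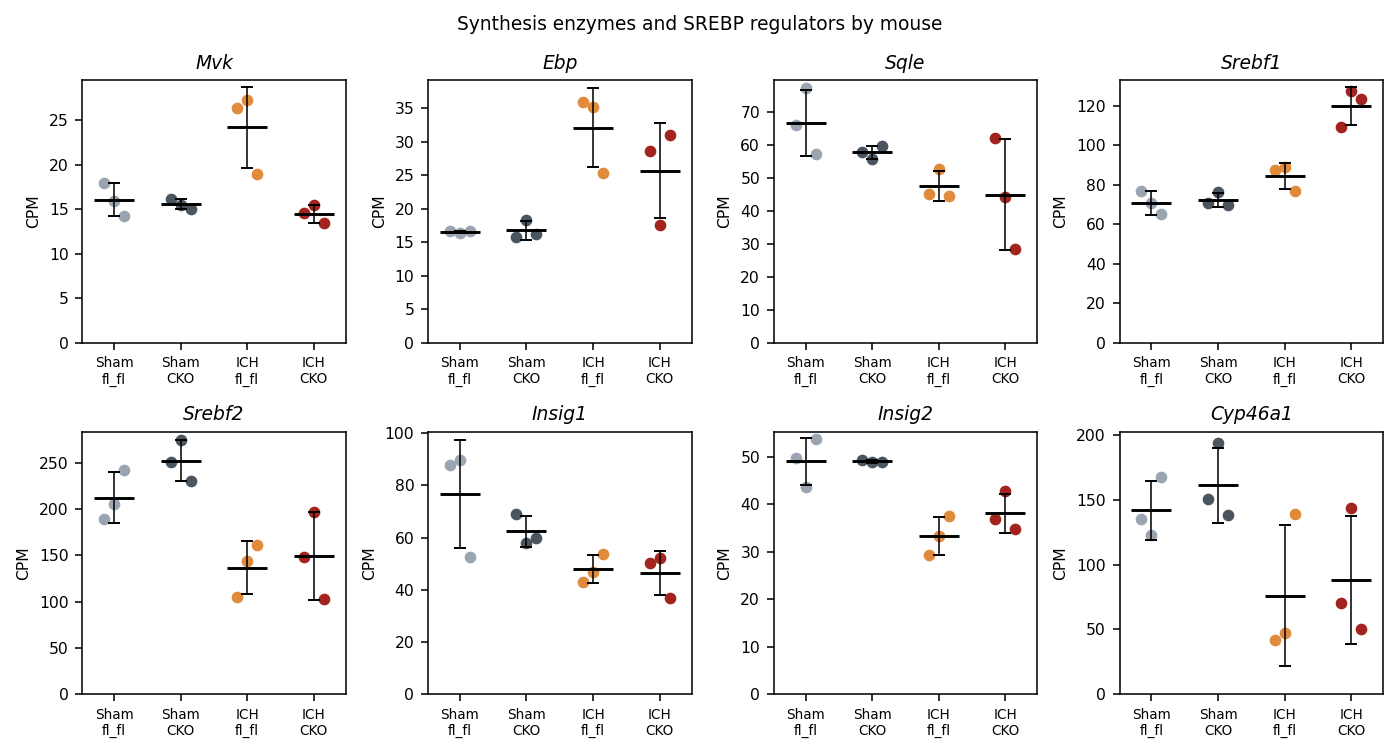
CPM of the enzymes Mvk, Ebp and Sqle, the regulators Srebf1, Srebf2, Insig1 and Insig2, and Cyp46a1. Each point is a mouse, drawn as mice 1, 2 and 3 from left to right, each bar is the mean of 3 mice and each whisker is 1 SD. Mvk is higher in the 3 ICH-Fabp4fl_fl mice than in all other mice, Srebf1 is highest in ICH-Fabp4CKO mice, and Srebf2 and Insig2 are lower after ICH in both genotypes, for which the difference passed the test in Fabp4fl_fl mice.

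Of the 5 regulators of synthesis, 3 fell in Fabp4fl_fl mice (60%, beside 19.3% of all genes) and 1 rose in Fabp4CKO mice (20%, beside 24.5%). In each genotype 4 of 5 had values below 0 on the log2 scale. With 1 library left out at a time, Srebf2 passed in 1 of 6 fits in Fabp4fl_fl mice, Insig1 in 2 and Insig2 in 4. In Fabp4CKO mice Srebf1 passed in 3 of 6. Srebf2 encodes SREBP2, the main activator of the synthesis enzymes. It had 189.6, 205 and 243 CPM in Sham-Fabp4fl_fl mice and 105, 144 and 161 in ICH-Fabp4fl_fl mice, without overlap, a fall with log2 -0.62 ± 0.20 (adjusted p = 0.0373). Sham-Fabp4CKO mice had 251, 275 and 231 CPM and ICH-Fabp4CKO mice 148, 197 and 103. These groups did not overlap either, but with a difference of -0.74 ± 0.25 the test was not passed (adjusted p = 0.061).

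Both INSIG genes fell in Fabp4fl_fl mice. Insig1, itself a SREBP target, had 87.7, 89.8 and 52.7 CPM in sham and 43.1, 46.8 and 53.7 after ICH, where sham mouse 3 lay below the highest ICH mouse (log2 -0.67 ± 0.23, adjusted p = 0.0455). Insig2, the form that does not depend on SREBP, had 49.7, 43.7 and 53.8 CPM in sham and 29.4, 33.3 and 37.5 after ICH, without overlap (log2 -0.54 ± 0.15, adjusted p = 0.0215). In Fabp4CKO mice Insig1 had 69.2, 58.1 and 60 CPM in sham and 50.2, 52.3 and 36.8 after ICH. There Insig2 had 49.5, 48.9 and 49.1 CPM in sham and 37, 42.8 and 34.7 after ICH. Neither pair overlapped, and neither passed, with differences of -0.41 ± 0.17 and -0.35 ± 0.12 (adjusted p = 0.0977 and 0.0652).

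Srebf1, which encodes the SREBP form that favours fatty acid synthesis and is a target of LXR receptors, was the regulator that rose. It had 70.8, 76.3 and 69.6 CPM in Sham-Fabp4CKO mice and 109, 128 and 123 in ICH-Fabp4CKO mice, a rise of 0.75 ± 0.12 (adjusted p = 0.00915). Unlike the transport genes, it was highest in mouse 2 of the ICH-Fabp4CKO group. In Fabp4fl_fl mice it had 76.9, 70.8 and 64.9 CPM in sham and 87.5, 88.8 and 76.8 after ICH, which just overlap (log2 0.27 ± 0.14, adjusted p = 0.144). Srebf1 overlaps Rai1 in the annotation. Scap, the escort protein of SREBP, passed in neither genotype, with differences of -0.11 ± 0.16 and -0.25 ± 0.13.

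Other cell markers moved with ICH in the same mice. In Fabp4fl_fl mice, 4 of 6 neuronal markers (Rbfox3, Snap25, Syt1, Gad1, Slc17a7 and Ppp1r1b) fell (66.7%, beside 19.3% of all genes). The sum of the 6 was 3976 to 4783 CPM in sham and 1191 to 3637 after ICH. Of 5 oligodendrocyte markers (Mbp, Mog, Mag, Mobp and Cnp), 2 rose there (40%, beside 26.2% of all genes), with sums of 6918 to 11912 CPM in sham and 15168 to 22790.0 after ICH. In Fabp4CKO mice none of either list passed, with neuronal sums of 4272 to 5111 CPM in sham and 1353 to 3947 after ICH and oligodendrocyte sums of 8476 to 9194 and 6042 to 9406 CPM. The median log2 fold changes of the 6 neuronal markers were close, at -1.16 in Fabp4fl_fl mice and -1.04 in Fabp4CKO mice. Not every marker moved alike: 6 were below 0 in Fabp4fl_fl mice and 5 in Fabp4CKO mice. Mean Slc17a7 went from 243 CPM in sham to 16.8 after ICH in Fabp4fl_fl mice, but from 66.7 to 180 CPM in Fabp4CKO mice. In each genotype 4 of 6 had groups without overlap (66.7%, beside 62% and 62.4% of all genes). The part of these cells in the levels of the enzymes and regulators was not tested.

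**Figure D5:**
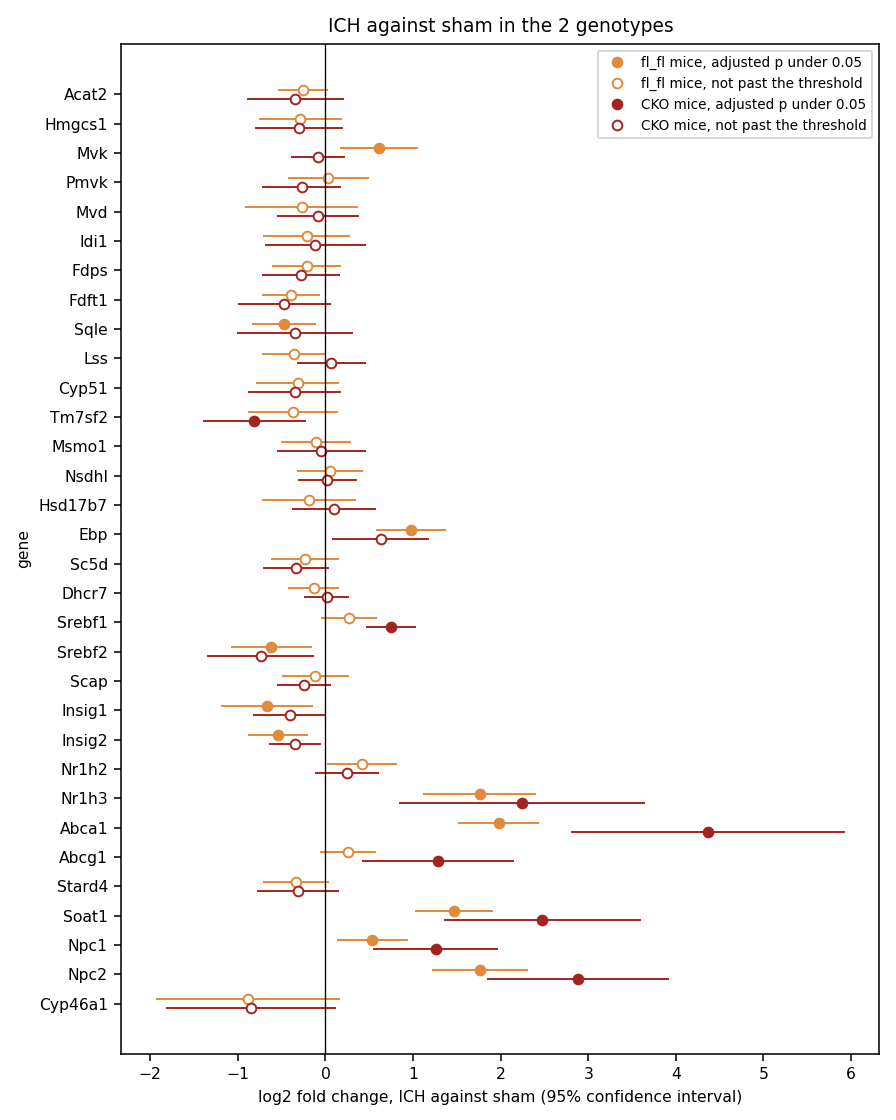
Log2 fold change of ICH against sham (horizontal) with its 95% confidence interval for each of the 32 genes, in Fabp4fl_fl mice (orange) and Fabp4CKO mice (red). Filled points have an adjusted p under 0.05. Most enzymes lie below 0, 14 of 18 in Fabp4fl_fl mice and 13 of 18 in Fabp4CKO mice. The intervals of Fabp4CKO mice are wide for Abca1, Nr1h3, Soat1 and Npc2.

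Counted without a test, the ranges of sham and ICH mice were separate for 17 of the 32 genes in Fabp4fl_fl mice (53.1%, beside 62% of all genes) and for 15 in Fabp4CKO mice (46.9%, beside 62.4%). In Fabp4fl_fl mice, Abca1, Ebp, Npc2, Nr1h3 and Soat1 passed whichever of the 6 libraries was left out, but the number of genes of the 32 that passed dropped from 11 to 5 without Sham-Fabp4fl_fl mouse 1 or ICH-Fabp4fl_fl mouse 2, and to 6 without Sham-Fabp4fl_fl mouse 2 or ICH-Fabp4fl_fl mouse 1. In these settings, in that order, 34.1%, 28%, 29.1% and 36.2% of all genes passed, beside 45.6% with all 6 libraries. In Fabp4CKO mice 8 genes passed with all libraries, beside 35.6% of all genes. None passed when any 1 of the Sham-Fabp4CKO mice was left out, beside 5.03% to 5.66% of all genes. Without ICH-Fabp4CKO mouse 1, 3 passed (Srebf1, Abca1 and Npc2), beside 10.6% of all genes. Without mouse 3, 5 passed (the same 3 with Soat1 and Npc1), beside 20.4%. Without ICH-Fabp4CKO mouse 2, all 8 still passed and the number was 16 of 32, beside 67.5% of all genes. Of the 16, 8 rose and 8 fell (Fdft1, Tm7sf2, Sc5d, Srebf2, Scap, Insig1, Insig2 and Cyp46a1). Without TMM scaling the split was 5 higher and 5 lower in Fabp4fl_fl mice and 7 higher and 0 lower in Fabp4CKO mice. With relative log expression scaling it was 7 and 3 in Fabp4CKO mice.

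None of the 32 genes differed past the adjusted threshold between the genotypes after ICH, whichever library was left out. By edgeR, 0 of 32 passed in either direction, as did 0 of the 14600 genes tested (0%), whose smallest adjusted p was 0.119. At an unadjusted p under 0.05 there were 5 of 32 (15.6%), beside 12.2% of all genes: Mvk and Pmvk lower and Abca1, Abcg1 and Srebf1 higher in ICH-Fabp4CKO mice. By DESeq2, 2 of 32 passed the adjusted threshold, Abca1 higher and Mvk lower, beside 3.5% of all genes.

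Mvk had the smallest p of the 32. The ICH-Fabp4CKO mice, at 14.6, 15.4 and 13.4 CPM, all lay below the ICH-Fabp4fl_fl mice, at 26.3, 27.2 and 19 CPM, with a difference of -0.74 ± 0.20 (unadjusted p = 0.00787, adjusted p = 0.314 in edgeR's test). Pmvk, the next kinase of the pathway, had 21, 23.9 and 16.3 CPM against 30.9, 28.5 and 28.9, again without overlap (difference -0.54 ± 0.19, adjusted p = 0.358).

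For Abca1 the ICH-Fabp4CKO mice, at 886, 309.5 and 1768 CPM, all lay above the ICH-Fabp4fl_fl mice, at 254, 228 and 179 CPM. The difference was 2.16 ± 0.60 with a 95% interval of 0.71 to 3.60 (adjusted p = 0.318). Abcg1 likewise separated the groups, 239, 139 and 387 against 107, 108 and 114 CPM, with a difference of 1.21 ± 0.36 (adjusted p = 0.339). So did Srebf1, 109, 128 and 123 against 87.5, 88.8 and 76.8 CPM, with a difference of 0.50 ± 0.15 (adjusted p = 0.341).

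Soat1, Npc1, Npc2 and Nr1h3 differed by 0.66 to 1.00 in the same direction, but mouse 2 of the ICH-Fabp4CKO group was among the ICH-Fabp4fl_fl mice for the first 3 and below them for Nr1h3, and their adjusted p-values were 0.451 to 0.612. The 18 synthesis enzymes were below 0 in 16 cases, with a median log2 fold change of -0.21, beside 0.06 over all genes. Hmgcs1 is an example, at -0.21 ± 0.23 with a 95% interval of -0.75 to 0.33. In all, 8 of the 32 genes kept the mice of the 2 ICH groups apart (25%), beside 19.8% of all genes.

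Markers of other cells differed between the 2 ICH groups to unlike degrees, and none of them passed the adjusted threshold. The 5 oligodendrocyte markers summed to 22790.0, 19228 and 15168 CPM in ICH-Fabp4fl_fl mice and 9406, 9353 and 6042 in ICH-Fabp4CKO mice. All 5 had groups without overlap, beside 19.8% of all genes. Oligodendrocytes make much of the cholesterol of myelin. The 4 endothelial markers (Pecam1, Cldn5, Cdh5 and Flt1) summed to 793, 543 and 377 and 291, 200.4 and 238 CPM, also with all 4 apart, beside the same 19.8%. For the other lists most markers overlapped between the groups. Of the 6 neuronal markers, 1 had groups without overlap, the cortical marker Slc17a7. It had 7.32 to 35 CPM in ICH-Fabp4fl_fl mice and 68.7 to 387 CPM in ICH-Fabp4CKO mice. The 4 neutrophil markers (S100a8, S100a9, Retnlg and Cxcr2) summed to 19.2, 5.81 and 4.57 and 95.8, 11.9 and 83.5 CPM. The sum of the 5 astrocyte markers (Gfap, Aqp4, Aldh1l1, Slc1a3 and Gja1) was 5004, 6019 and 5590.1 and 4448, 4624 and 3613 CPM, that of the 6 neuronal markers 1191, 1934 and 3637 and 1932, 3947 and 1353 CPM, and that of the 2 erythroid markers (Hba-a1 and Hbb-bs) 406, 245 and 121 and 822, 98.3 and 90.4 CPM. Their part in the differences between genotypes was not tested.

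The same comparison was made in sham tissue. By edgeR, none of the 32 passed in either direction, and of the 14395 genes tested 0% were higher and 0.111% lower (16 genes). At an unadjusted p under 0.05 there was 1 of 32 (3.12%), beside 10.2% of all genes, and by DESeq2 also none of the 32 passed the adjusted threshold. Hsd17b7, a reductase of late sterol synthesis, was that gene, with 20.2, 17.6 and 21.2 CPM in Sham-Fabp4CKO mice and 30.5, 32 and 19.3 in Sham-Fabp4fl_fl mice, where mouse 3 overlapped (difference -0.48 ± 0.19, adjusted p = 0.484). Next came Srebf2, higher by 0.24 ± 0.12 (adjusted p = 0.501), and Abca1, at -0.23 ± 0.12 (adjusted p = 0.51), and for both genes the groups overlapped. Of the 32, only Npc2 had groups without overlap (3.12%, beside 14.9% of all genes), 70.1, 74.3 and 68.4 against 95.8, 77.2 and 74.4 CPM.

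The sham values depended on 1 library. Of the 18 enzymes, 17 were below 0 in Sham-Fabp4CKO against Sham-Fabp4fl_fl mice, and Sham-Fabp4fl_fl mouse 3 was itself below the mean of its group for 16 of the 18, whereas mice 1 and 2 were below it for 2 and 3. Hmgcs1 shows this, with 251, 291 and 181 CPM in Sham-Fabp4fl_fl mice and 225, 203 and 207 in Sham-Fabp4CKO mice. Without Sham-Fabp4fl_fl mouse 3, 9 of the 32 passed, Srebf2 higher and Hmgcs1, Mvd, Idi1, Sqle, Cyp51, Nsdhl, Hsd17b7 and Insig1 lower in Sham-Fabp4CKO mice, and 19.6% of all genes passed. Mice 1 and 2 are those with high Slc17a7 and low Ppp1r1b, and the part of that in the enzyme levels was not tested.

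Whether ICH acted differently in the 2 genotypes was tested as the interaction of ICH and genotype over all 12 libraries. By edgeR, none of the 32 passed the adjusted threshold, and of 15089 genes 0.0133% passed as higher (2 genes) and 0.00663% as lower (1 gene). At an unadjusted p under 0.05 there were 4 of 32 (12.5%), beside 9.94% of all genes. They were Abca1 (2.34 ± 0.64, 95% interval 0.92 to 3.76, unadjusted p = 0.004, adjusted p = 0.304 in edgeR's test), Mvk (-0.74 ± 0.24, adjusted p = 0.348), Srebf1 (0.44 ± 0.17, adjusted p = 0.435) and Abcg1 (0.98 ± 0.39, adjusted p = 0.435). By DESeq2, Abca1 alone of the 32 passed, beside 1.34% of all genes. Without ICH-Fabp4CKO mouse 2, Abca1 and Abcg1 passed in edgeR, beside 2.42% of all genes. The difference between the genotypes in the rise of Abca1 thus missed the threshold in edgeR's test with all 12 libraries.

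Other genes of the pathway gave context for the 32. Of 6 further LXR targets, 4 rose in Fabp4fl_fl mice (66.7%, beside 26.2% of all genes) and 5 in Fabp4CKO mice (83.3%, beside 24.5%), and none fell. Mertk, a receptor for dying cells, went from 23.6, 21.9 and 22.8 CPM in sham to 60, 54.3 and 50.3 after ICH in Fabp4fl_fl mice and from 26.5, 27.3 and 27.3 to 103, 63.8 and 183 in Fabp4CKO mice (log2 1.29 ± 0.13 and 2.12 ± 0.37, adjusted p = 0.00058 and 0.0117). Lpcat3, which puts polyunsaturated fatty acids into phospholipids, rose by 1.56 ± 0.17 and 1.77 ± 0.38 (adjusted p = 0.000708 and 0.0196).

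Of 16 genes of sterol uptake, transfer, ester hydrolysis and oxysterol metabolism, 3 rose (18.8%, beside 26.2% of all genes) and 2 fell (12.5%, beside 19.3%) in Fabp4fl_fl mice, and 7 rose (43.8%, beside 24.5%) and none fell in Fabp4CKO mice. Ch25h, which makes an LXR-activating oxysterol, had 1.2, 0.718 and 0.315 CPM in Sham-Fabp4fl_fl mice and 62.4, 38.3 and 14.9 in ICH-Fabp4fl_fl mice (log2 5.68 ± 0.67, adjusted p = 0.000919). In Fabp4CKO mice it had 0.426, 0.272 and 0.187 CPM in sham and 60.7, 17.2 and 75.7 after ICH (log2 7.42 ± 0.74, adjusted p = 0.00478). Hsd3b7, which degrades such oxysterols on the way to bile acids, rose by 2.07 ± 0.28 and 2.02 ± 0.36 (adjusted p = 0.0016 and 0.0119). Gramd1b, which carries cholesterol from the plasma membrane inwards, fell in Fabp4fl_fl mice (log2 -1.39 ± 0.26, adjusted p = 0.0053) and differed by -0.40 ± 0.15 in Fabp4CKO mice (adjusted p = 0.0716). Nceh1, a cholesteryl ester hydrolase, fell in Fabp4fl_fl mice (log2 -0.53 ± 0.16, adjusted p = 0.0284) and differed by 0.58 ± 0.30 in Fabp4CKO mice (adjusted p = 0.15).

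Of 14 fatty acid and other SREBP targets, 2 rose (14.3%) and 5 fell (35.7%, beside 19.3% of all genes) in Fabp4fl_fl mice, and none rose and 2 fell (14.3%, beside 11.1%) in Fabp4CKO mice. Acsl3, an acyl-CoA synthetase of lipid droplets, and Aacs, which feeds ketone bodies into lipid synthesis, fell in Fabp4fl_fl mice (log2 -1.08 ± 0.27 and -0.50 ± 0.13, adjusted p = 0.0164 and 0.0166). Tmem97, a sterol-responsive partner of NPC1, rose there by 0.79 ± 0.20 (adjusted p = 0.017). Scd1, which desaturates fatty acids, rose from 404, 440.3 and 318 CPM in Sham-Fabp4fl_fl mice to 692, 671 and 527 in ICH-Fabp4fl_fl mice (log2 0.72 ± 0.21, adjusted p = 0.0258). In Fabp4CKO mice Scd1 had 391, 332 and 379 CPM in sham and 291, 316 and 193 after ICH (log2 -0.44 ± 0.22, adjusted p = 0.14). The interaction for Scd1 was -1.21 ± 0.31 (adjusted p = 0.269). It passed in 1 of 5 alternatives that kept all libraries and in 1 of 12 fits with 1 library left out.

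Of 9 genes of the isoprenoid branch, which leaves the pathway before squalene, 1 rose (11.1%) and 2 fell (22.2%) in Fabp4fl_fl mice, and 1 rose (11.1%) and none fell in Fabp4CKO mice. Pggt1b, a subunit of the transferase that attaches geranylgeranyl groups to proteins, rose in both (log2 0.85 ± 0.21 and 0.96 ± 0.28, adjusted p = 0.0152 and 0.0433). Ggps1, which makes geranylgeranyl diphosphate, and Dhdds, a subunit of dolichol synthesis, fell in Fabp4fl_fl mice (log2 -0.57 ± 0.17 and -0.34 ± 0.12, adjusted p = 0.0305 and 0.0498). Over the 4 lists, 10 of 45 genes rose (22.2%) and 9 fell (20%) in Fabp4fl_fl mice beside 26.2% and 19.3% of all genes, and 13 rose (28.9%) and 2 fell (4.44%) in Fabp4CKO mice, beside 24.5% and 11.1%. Between the genotypes, no gene of these lists passed the adjusted threshold after ICH, in sham or for the interaction, by edgeR.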

How the data were processed

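The authors deposited estimated counts (expected counts) per gene for 12 libraries made with a NEBNext Ultra kit and sequenced on a NovaSeq instrument. The submitters' processing notes name Bowtie2 2.2.8, HISAT2, StringTie 1.3.1 and DESeq2 without roles. The counting tool, genome build and use of strand are not given in the sources used here. The values hold fractions, as an estimator that shares reads between genes gives them, which makes paralogs and overlapping genes uncertain. They were rounded to whole numbers.

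Tests were run in R 4.3.3 with edgeR 4.0.16 (TMM, the filterByExpr filter at 10 counts per library and 15 in total, quasi-likelihood F-test) on the libraries compared, and on all 12 for the interaction, with Benjamini-Hochberg adjustment over all genes tested. The tests were also run on simulated counts with known changes. Those counts held no library that stood apart from its group, so they cannot show how the tests fare on such libraries. Depth was 15650813 to 22406216 counts per library. Alternatives were relative log expression scaling, no TMM, DESeq2 1.42.0, no filter, a replicate block, all 12 libraries in one fit, and leaving out each library. Figures were drawn with matplotlib 3.10.9.

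The 32 genes and the other lists were chosen with earlier results of these data known. Values in every mouse are given, per comparison, for up to 5 genes in each direction with the largest fold change past the threshold, or for the 3 genes with the smallest p where none passed. From each other list, at most 2 genes per direction with the smallest p in Fabp4fl_fl mice are named. Per-mouse values of Npc1, Srebf1, Pmvk and Cyp46a1 beyond this rule, the examples Hmgcs1, Dhcr7 and Fdft1, and the 4 promoters were chosen after values were seen. Of the cell type markers, 1 of microglia and 1 of oligodendrocytes are not reported here.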

Additional observations from a re-analysis of the deposited data

How the results depend on the processing

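The 90 log2 fold changes of named genes were recomputed under every alternative, those of genes outside the 32 as a choice made after seeing the data. Of 1115 values, 933 kept direction and call, 128 lost and 42 gained a call, and 12 reversed, all of them of 4 values near 0 that had not passed. Nsdhl in Fabp4fl_fl mice (0.05) was -0.016 without TMM and -0.13 to 0.088 with 1 library left out. Dhcr7 in Fabp4CKO mice (0.012) was -0.00376 with relative log expression scaling, -0.069 without TMM, -0.00647 by DESeq2, -0.00492 without a filter and -0.033 to 0.048 with 1 library left out. Hsd17b7 in Fabp4CKO mice ranged from -0.12 to 0.21 with 1 left out. Lpcat3 between genotypes after ICH was -0.017 with the replicate block and -0.27 to 0.44 with 1 left out. Of the 32 genes, 11 passed for ICH in Fabp4fl_fl mice and 9 to 12 under the alternatives that kept all 6 libraries. For ICH in Fabp4CKO mice 8 passed, and 7 to 11 under the alternatives other than the replicate block, with 5 under it. For genotype after ICH none passed, except 2 by DESeq2 and 2 with all 12 libraries in one fit, Abca1 and Mvk in both. For the interaction none passed, except 1, Abca1, by DESeq2. In sham tissue none passed under any alternative that kept all libraries.

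Leaving out 1 library gave 5 to 12 genes for ICH in Fabp4fl_fl mice, 0 to 16 for ICH in Fabp4CKO mice, 0 in all 6 cases for genotype after ICH, 0 to 9 for genotype in sham and 0 to 2 for the interaction. A group left with 2 mice has fewer degrees of freedom, and over all genes the calls for ICH in Fabp4CKO mice then ranged from 751 to 10099 beside 5247. DESeq2 called 532 genes for genotype after ICH, 149 for genotype in sham and 232 for the interaction, beside 0, 16 and 3 by edgeR.

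Correlations between mice with the same replicate number were 0.205, 0.0296 and 0.145 for ICH in Fabp4fl_fl mice. Their mean there was 0.126, beside -0.062 for mice with different numbers. They were near 0 for ICH in Fabp4CKO mice, 0.359, -0.178 and -0.608 between genotypes after ICH, and 0.0743, -0.197 and -0.0978 in sham. In these other comparisons the mean was below that of mice with different numbers. The numbers were not treated as pairs in the main tests, and the replicate block served as an alternative. With the replicate block 12 of the 32 genes passed for ICH in Fabp4fl_fl mice and 5 in Fabp4CKO mice (Srebf1, Abca1, Soat1, Npc2 and Srebf2), and none for genotype or the interaction.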

Other observations

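Lrp1, the large endocytic receptor for lipoprotein remnants, and Scarb2, a lysosomal membrane protein, rose after ICH in Fabp4CKO mice (log2 1.41 ± 0.43 and 1.19 ± 0.30, adjusted p = 0.0457 and 0.0294 in edgeR's test) and not past the threshold in Fabp4fl_fl mice (0.30 ± 0.22 and 0.27 ± 0.15, adjusted p = 0.287 and 0.18). Both genes were chosen after their values were seen. Lrp1 had 1350.0, 623 and 2151 CPM in ICH-Fabp4CKO mice and 561, 597 and 465 in ICH-Fabp4fl_fl mice. The interactions did not pass, at 1.07 ± 0.50 for Lrp1 and 0.87 ± 0.34 for Scarb2 (adjusted p = 0.511 and 0.425).

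Ebp, Mvk and Tmem97 rose together after ICH in Fabp4fl_fl mice while Sqle and Insig1 fell, so genes that are commonly read as SREBP targets moved in both directions in the same 6 mice. These genes were set together after their values were seen. Most of the calls were fragile: with 1 library left out, Ebp passed in 6 of 6 fits, Tmem97 and Insig1 in 2, and Mvk and Sqle in 1. Mylip, an LXR target whose product degrades lipoprotein receptors, had 30.8, 25.3 and 30.2 CPM in ICH-Fabp4fl_fl mice and 78.9, 33.3 and 159 in ICH-Fabp4CKO mice, where the spread among mice again followed that of Abca1, lowest in mouse 2 and highest in mouse 3. Lpcat3, another LXR target, had 63.7, 59 and 45.8 and 63.7, 29.5 and 89.1 CPM in the same groups, with a difference between genotypes of 0.11 ± 0.39 (adjusted p = 0.936 in edgeR's test, beside 1.64 ± 0.52 and 0.348 for Mylip). The difference between these 2 genes was not tested.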
